A study of Mus musculus with 20 samples.

Results

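The genes described here encode the proteasome, the protease complex that degrades ubiquitin-tagged proteins, together with its assembly chaperones, its activators and its inhibitor. Members were found by name, as protein-coding genes whose symbol starts with PSMA to PSMG followed by a digit, without the immunoproteasome genes PSMB8, PSMB9 and PSMB10. The rule gave 46 of 60607 human genes and 47 of 55335 mouse genes, of which 45 in each species are proteasome genes. PSMC3IP, a meiotic recombination factor, matched in both species by its name alone, and the mouse gene Psme2b is a near-identical copy of Psme2. Of the 45, 40 human and 44 mouse genes had a mean of at least 1 transcript per 1000000 (TPM) over the livers of their set and were tested.

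Livers of 20 mice were compared to ask whether knockdown of HuR changes the same genes in human and mouse liver cells. HuR, encoded by ELAVL1, is an RNA-binding protein that binds U-rich and AU-rich stretches of transcripts. The humanized mice were TKNOG animals, highly immune-deficient NOG mice with a viral thymidine kinase transgene under a mouse albumin promoter, so that ganciclovir (25 mg/kg, given at 8 to 9 weeks of age) removes their own hepatocytes. They received primary human hepatocytes 1 week later, serum human albumin was measured 8 to 12 weeks after the graft, and animals above 0.5 mg/ml were used. Few hepatocyte donors were used, as the paper states among its limitations. The sex of the humanized mice is not stated. The WT mice were male C57BL/6, which the paper states were bought at 8 weeks of age. In each set one group received an adenovirus with an shRNA against HuR (HuR KD, 4 humanized and 6 WT mice) and the other a LacZ control virus (4 humanized and 6 WT mice), with 2000000000 pfu per mouse, and livers were taken on day 7 after a 4 h fast. All animals therefore carried an adenovirus, and all humanized animals the transgene, ganciclovir and graft. For the humanized mice the deposited values cover human genes, so the remaining mouse cells of these livers are not seen. In whole liver, fewer cells of a type and less RNA per cell cannot be told apart.

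The core particle is a barrel of stacked rings. Its outer rings are built of alpha subunits (PSMA genes), which gate the entrance, and its inner rings of beta subunits (PSMB genes), some of which carry the catalytic sites. A regulatory cap with a ring of ATPases (PSMC genes) and a set of non-ATPase subunits (PSMD genes) recognises, unfolds and feeds ubiquitin-tagged proteins. Dedicated chaperones (PSMG1 to PSMG4 for the core, PSMD5, PSMD9 and PSMD10 for the cap) build both, and the activators PSME1 and PSME2 (PA28 alpha and beta), PSME3 (PA28 gamma) and PSME4 (PA200) can bind the core in place of the cap, while PSMF1 (PI31) was named as an inhibitor of it. In many cells the subunit genes are transcribed together under NFE2L1, a factor that binds antioxidant response elements.

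Reads counted on genes, recovered from the steps of the TPM values, ranged from 2670469 to 20302454 in the humanized mouse livers and from 12960373 to 44668272 in the WT mouse livers, except 1423985 in WT LacZ replicate 2. Of all TPM, 27.2 to 49.1% belonged to mitochondrial ribosomal RNA in the humanized set and 0% in the WT set, so levels are compared within a table only. The share also differed within the humanized set. It was 49.1% in HuR KD replicate 4 and in LacZ replicate 2, the deepest libraries of the set (20302454 and 19891555 reads). The other humanized mouse livers had 27.2 to 36.0%. Human ELAVL1 was at 2.37 to 4.05 TPM in the HuR KD and 4.77 to 6.17 TPM in the LacZ livers (log2 change -0.59, SE 0.17). Mouse Elavl1 was at 3.72 to 5.62 and 8.58 to 10.7 TPM (log2 change -0.83, SE 0.089). The groups did not overlap in either set. In the limma fits described below both genes had an unadjusted p under 0.05. After adjustment mouse Elavl1 passed and human ELAVL1 did not. Summed hepatocyte markers reached 42059 to 92528 TPM in the humanized and 70231 to 87415 TPM in the WT mouse livers. Human T and NK cell markers summed to at most 0.067 TPM and human endothelial markers to at most 0.556 TPM.

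Because HuR binds AU-rich sequence, the stretches that resemble its targets were looked up first. The letters TTTATTT were searched on the transcript strand of an annotated 3′ UTR of each mouse gene (GENCODE M21). The protein-coding transcript with a 3′ UTR and the lowest number in its name was taken, and other transcripts were not searched. TTTATTT occurred in 7 of the 44 tested members (15.9%) against 36.2% of 11228 genes. ATTTA, which can overlap it, occurred in 36.4% against 64.3%. The 3′ UTRs of the members were also shorter, with a median of 255.5 bases against 878.0. Of the mouse core and cap subunits that were called changed or had the smallest p of their class, 3 held the first stretch, and the site is printed 5′ to 3′ with the matched letters in capitals.

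Psmd14: actcgcttctgTTTATTTtgtccgggttt

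Psma5: tgcccttagacTTTATTTccagctcttat

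Psmd11: tctgactggctTTTATTTtccttttcaaa

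The Psmd14 site starts at base 144 of a 3′ UTR of 296 bases, that of Psma5 at base 57 of 162 and that of Psmd11 at base 1361 of 1539. Psmd14 was lower and Psmd11 higher with HuR KD, as given further on. None of the activator genes Psme1 to Psme4 and none of the chaperone genes Psmg1 to Psmg4 held TTTATTT in the 3′ UTR searched, and of the other chaperones Psmd10 held it. Median log2 changes in WT mouse livers were -0.06 for the 7 members with the stretch and -0.01 for those without it.

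In WT mouse livers the core subunits lay high and close together. Apart from the testis-type alpha subunit Psma8 (0.855 to 2.04 TPM in LacZ livers) and the thymus-type beta subunit Psmb11 (at most 0.0443 TPM), every core subunit was between 36.6 and 230 TPM in every LacZ liver. The alpha subunit Psma6 was the highest, and the lowest single value was that of Psma3 in LacZ replicate 2. In the humanized mouse livers most human core subunits were between 7.99 and 88.7 TPM in the LacZ livers, but a few lay far below the rest of the same barrel. PSMA6 was at 1.70, 2.83, 1.99 and 1.602 TPM in LacZ replicates 1 to 4, PSMA2 at 3.11, 3.58, 2.20 and 1.97 TPM, and PSMB3 at 0.220, 0.858, 0.926 and 0.525 TPM. PSMB3 rested on 1 to 11 reads per liver over both groups. Of the cap ATPases, PSMC4 was at 1.82, 1.89, 0.106 and 0.00 TPM in the LacZ livers, with at most 53 reads, beside PSMC5 at 8.02 to 12.0 TPM and PSMC6 at 12.4 to 15.8 TPM. These low genes did not take the same place in the mouse table, where Psma6 led the core and Psmc4 was at 119 to 150 TPM in LacZ livers.

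Several human proteasome genes have processed pseudogenes that the table lists with values of their own. PSMA6P1 had a mean of 3.87 TPM over all 8 livers, PSMC1P1 3.41 TPM and PSME2P2 2.91 TPM, and the antisense transcripts PSMA3-AS1 and PSMD6-AS2 had 7.18 and 2.31 TPM. Levels of PSMA6, PSMC1, PSME2, PSMA3 and PSMD6 are therefore uncertain to the extent that reads were shared with these transcripts, which was not tested. Nor was it tested whether reads of PSMB3, PSMC4 or PSME1 were lost or assigned elsewhere, so their low values are not a measure of low expression. None of the 4 non-coding genes of the mouse table whose names match the same pattern reached a mean of 1 TPM.

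**Figure D1:**
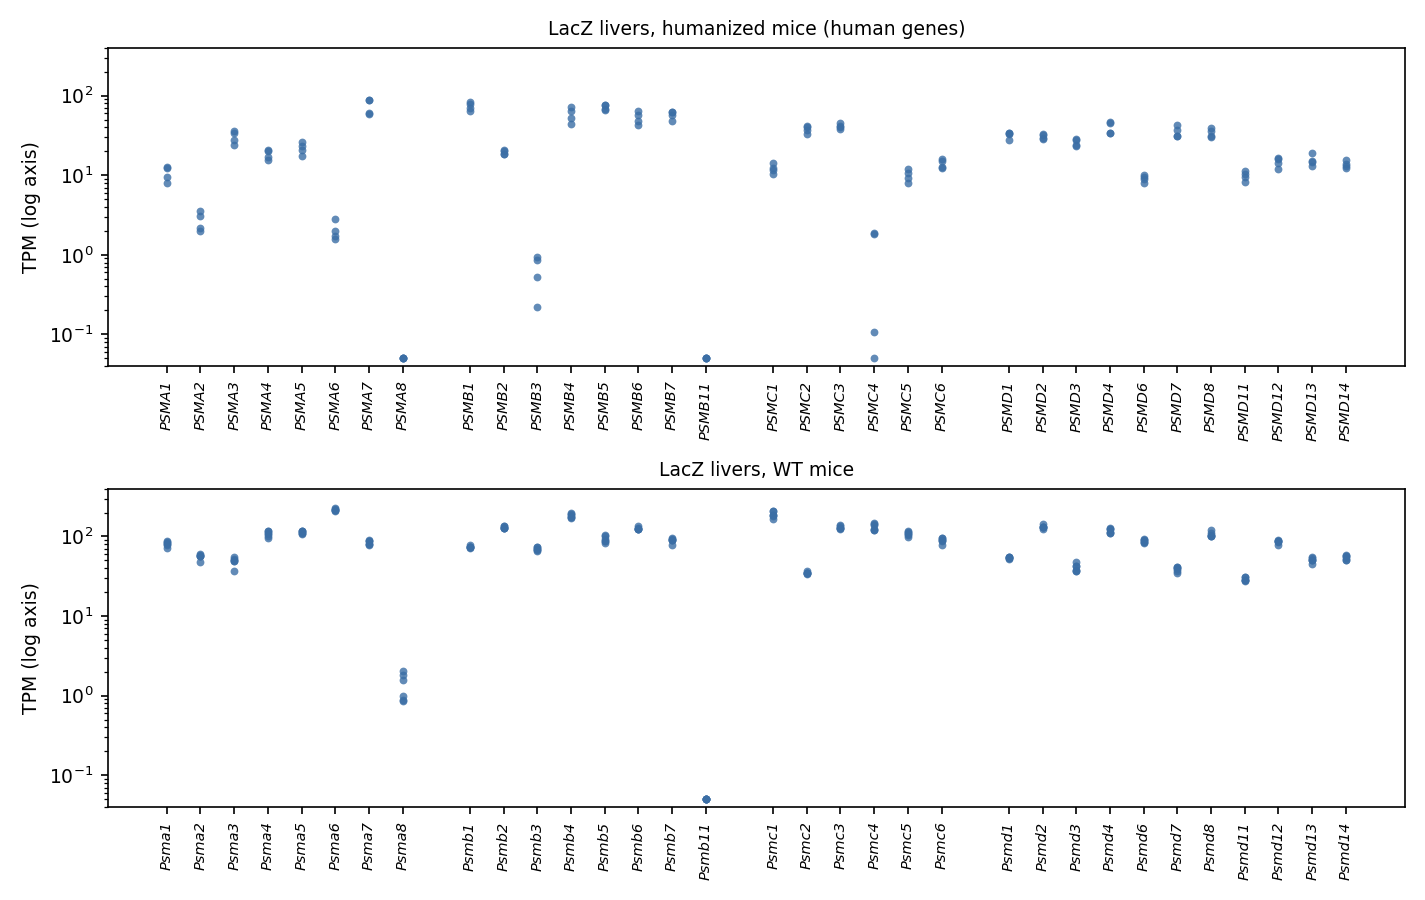
TPM of each core and cap subunit (log axis) in the LacZ livers, 1 point per liver, for the 4 humanized mice (human genes, top) and the 6 WT mice (bottom), with values below 0.05 TPM drawn at 0.05. PSMA8 and PSMB11 are at 0 in the human table, and PSMA2, PSMA6, PSMB3 and PSMC4 sit below the remaining human subunits, while the mouse subunits other than Psma8 and Psmb11 lie between 27.4 and 230 TPM.

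Genes were called changed at an unadjusted limma p under 0.05, the threshold used in the study, with the p adjusted over all genes tested beside it. In the humanized mouse livers 2 of 40 members were called, both lower with HuR KD (5% of the members, against 7.87% of all genes tested), and 0 were called higher (3.6% of all genes). After adjustment 0 members passed, where 0.212% of all genes did. PSME3 and PSMB2 were the members with every HuR KD liver below every LacZ liver (5% of the members, where 7.16% of all genes separated in one direction or the other). As a set, 30 of the 40 had a negative log2 change, where 57.3% of all genes tested had one, with a median of -0.13 against -0.05 over all genes tested. The count of lower calls was 5 without HuR KD replicate 3 and 1 without HuR KD replicate 1 or 2 or LacZ replicate 1 or 4.

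The smallest p was that of an activator. PSME3 encodes PA28 gamma, a nuclear activator that promotes ubiquitin-independent degradation. It was at 3.73, 4.23, 4.44 and 6.81 TPM in HuR KD replicates 1 to 4 and at 9.83, 8.83, 10.1 and 12.6 TPM in LacZ replicates 1 to 4. The highest knockdown liver was below the lowest control, and the knockdown mean was 46.4% of the control mean (4.802 ± 1.368 against 10.35 ± 1.604 TPM, SD). The log2 change was -0.98 (SE 0.19, 95% interval -1.40 to -0.57), with a limma p of 0.000451 and an adjusted p of 0.0835. The exact permutation p was 0.0286, the smallest that 70 groupings of these livers can give. Between 30 and 500 reads lay behind each of these values. The adjusted p fell between 0.0228 and 0.224 over the other settings tried that kept all livers or left out 2, and up to 0.242 with single livers left out. Without LacZ replicate 2 it was 0.0497, and without both HuR KD replicate 4 and LacZ replicate 2, whose deviations from their group means ran together, it was 0.0228.

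PSME4, which encodes PA200, a large nuclear activator known from spermatogenesis and DNA repair, was the other member called. It was at 6.97, 7.27, 9.47 and 12.3 TPM in HuR KD and 12.0, 11.7, 12.3 and 13.4 TPM in LacZ replicates 1 to 4. Replicates 1 to 3 of the knockdown lay below all controls and replicate 4 lay among them. On the log2 scale the change was -0.45 (SE 0.18, limma p 0.0328, adjusted p 0.380), and the exact permutation p was 0.0857. The call was lost when HuR KD replicate 1 or 2 or LacZ replicate 1, 3 or 4 was left out (log2 changes between -0.35 and -0.46) and when TPM were rescaled to protein-coding genes (-0.36).

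The interferon-inducible activator pair gave no such picture. PSME2 was at 0.716, 1.22, 4.88 and 10.1 TPM in HuR KD and 5.10, 8.90, 2.79 and 8.90 TPM in LacZ livers, so that the lowest and the highest value were both knockdown livers (log2 change -0.80, SE 0.58, adjusted p 0.663). Without HuR KD replicate 4 the change was -1.29 with a limma p of 0.0260. PSME1 was at 11.3 TPM in HuR KD replicate 3 and at most 1.59 TPM in the 7 other livers, and at 0 in HuR KD replicate 1 (log2 change 0.59, SE 0.71). The inhibitor PSMF1 was at 9.03 to 12.4 TPM with HuR KD and 10.2 to 13.96 TPM in the LacZ livers (log2 change -0.19, SE 0.15).

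Human core subunits gave 0 calls among the 13 tested, where 7.87% of all genes tested were called lower and 3.6% higher. The median log2 change was -0.12 for both the alpha and the beta class. PSMA7, the alpha subunit with the highest level, was at 51.2, 64.7, 91.4 and 93.9 TPM with HuR KD and 61.2, 88.7, 88.4 and 58.1 TPM in LacZ livers, a spread within each group wider than the gap between them (log2 change 0.01, SE 0.24). PSMA5 had the smallest p of its class (log2 change -0.27, SE 0.19, adjusted p 0.652). The beta subunit PSMB1 was at 58.9, 67.7, 83.9 and 76.7 TPM and at 64.5, 77.8, 83.7 and 69.9 TPM, again with overlapping groups. PSMB2, a beta subunit without catalytic activity, was at 17.7, 14.9, 16.4 and 16.5 TPM with HuR KD and 18.2, 19.99, 18.6 and 20.9 TPM in LacZ livers. Its groups did not overlap, by a margin of less than 1 TPM, and it was not called (log2 change -0.24, SE 0.12, adjusted p 0.502).

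In the human cap, 0 of 16 tested subunits were called, where 7.87% of all genes tested were called lower and 3.6% higher. A negative log2 change was found in 57.3% of all genes tested and in 30 of the 40 members. All 5 ATPases tested had one, from -0.16 to -0.34. PSMC3, the highest, was at 32.1, 28.1, 50.7 and 39.0 TPM with HuR KD and 40.2, 45.4, 38.5 and 41.8 TPM in LacZ livers, with HuR KD replicate 3 above every control. PSMC5 had the smallest p, with 6.14, 7.59, 9.69 and 7.29 TPM against 10.6, 9.17, 8.02 and 12.0 TPM (log2 change -0.34, SE 0.17, adjusted p 0.507), and it passed the unadjusted threshold without HuR KD replicate 3 (-0.44) or LacZ replicate 3 (-0.43). Among the non-ATPases, the ubiquitin receptor PSMD4 was at 32.5 to 42.0 TPM and 33.6 to 46.4 TPM. PSMD6 was at 10.9, 9.45, 11.5 and 11.2 TPM with HuR KD and 7.95, 10.2, 9.09 and 9.48 TPM in LacZ livers, with HuR KD replicate 2 below LacZ replicates 2 and 4. Its log2 change was 0.21 (SE 0.13), and it passed the unadjusted threshold with median-of-ratios factors or quantile normalization (0.28 with each).

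Of the human assembly chaperones, 0 of 6 tested were called, against the same shares of all genes (7.87% lower and 3.6% higher). PSMG2 was at 8.60, 13.3, 14.8 and 19.5 TPM with HuR KD and 14.2, 19.1, 14.1 and 16.0 TPM in LacZ livers, and PSMD10, also known as gankyrin, at 11.5, 13.0, 13.2 and 14.7 TPM against 16.6, 13.5, 13.7 and 18.7 TPM. The log2 changes were -0.20 (SE 0.23) and -0.23 (SE 0.15). PSMG4 (mean of 0.900 TPM with HuR KD and 1.07 TPM in LacZ livers) was not tested, nor were PSMB3, PSMC4 and the tissue-restricted PSMA8 and PSMB11, which were listed at 0 in every liver.

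The lean of the human members to negative values differed between livers of one group. HuR KD replicates 1 and 2 had 34 and 38 of the 40 members below the LacZ mean, replicate 4 had 26 and replicate 3 had 11. LacZ replicate 1 had 30. Replicates 1 and 2 of HuR KD were also shallow, with 2670469 and 3171015 reads, but LacZ replicate 4, at 3169425 reads, had 14 members below the mean. The part of depth in this was not tested. The median log2 change over the members ran from -0.04 with voom on recovered reads to -0.15 with the smaller pseudocount, and the median over all genes from 0.02 to -0.07 over the same settings. Summed core TPM were 410 to 564 with HuR KD and 447 to 533 in the LacZ livers, and summed cap TPM 312 to 427 and 349 to 403, with overlap in both.

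**Figure D2:**
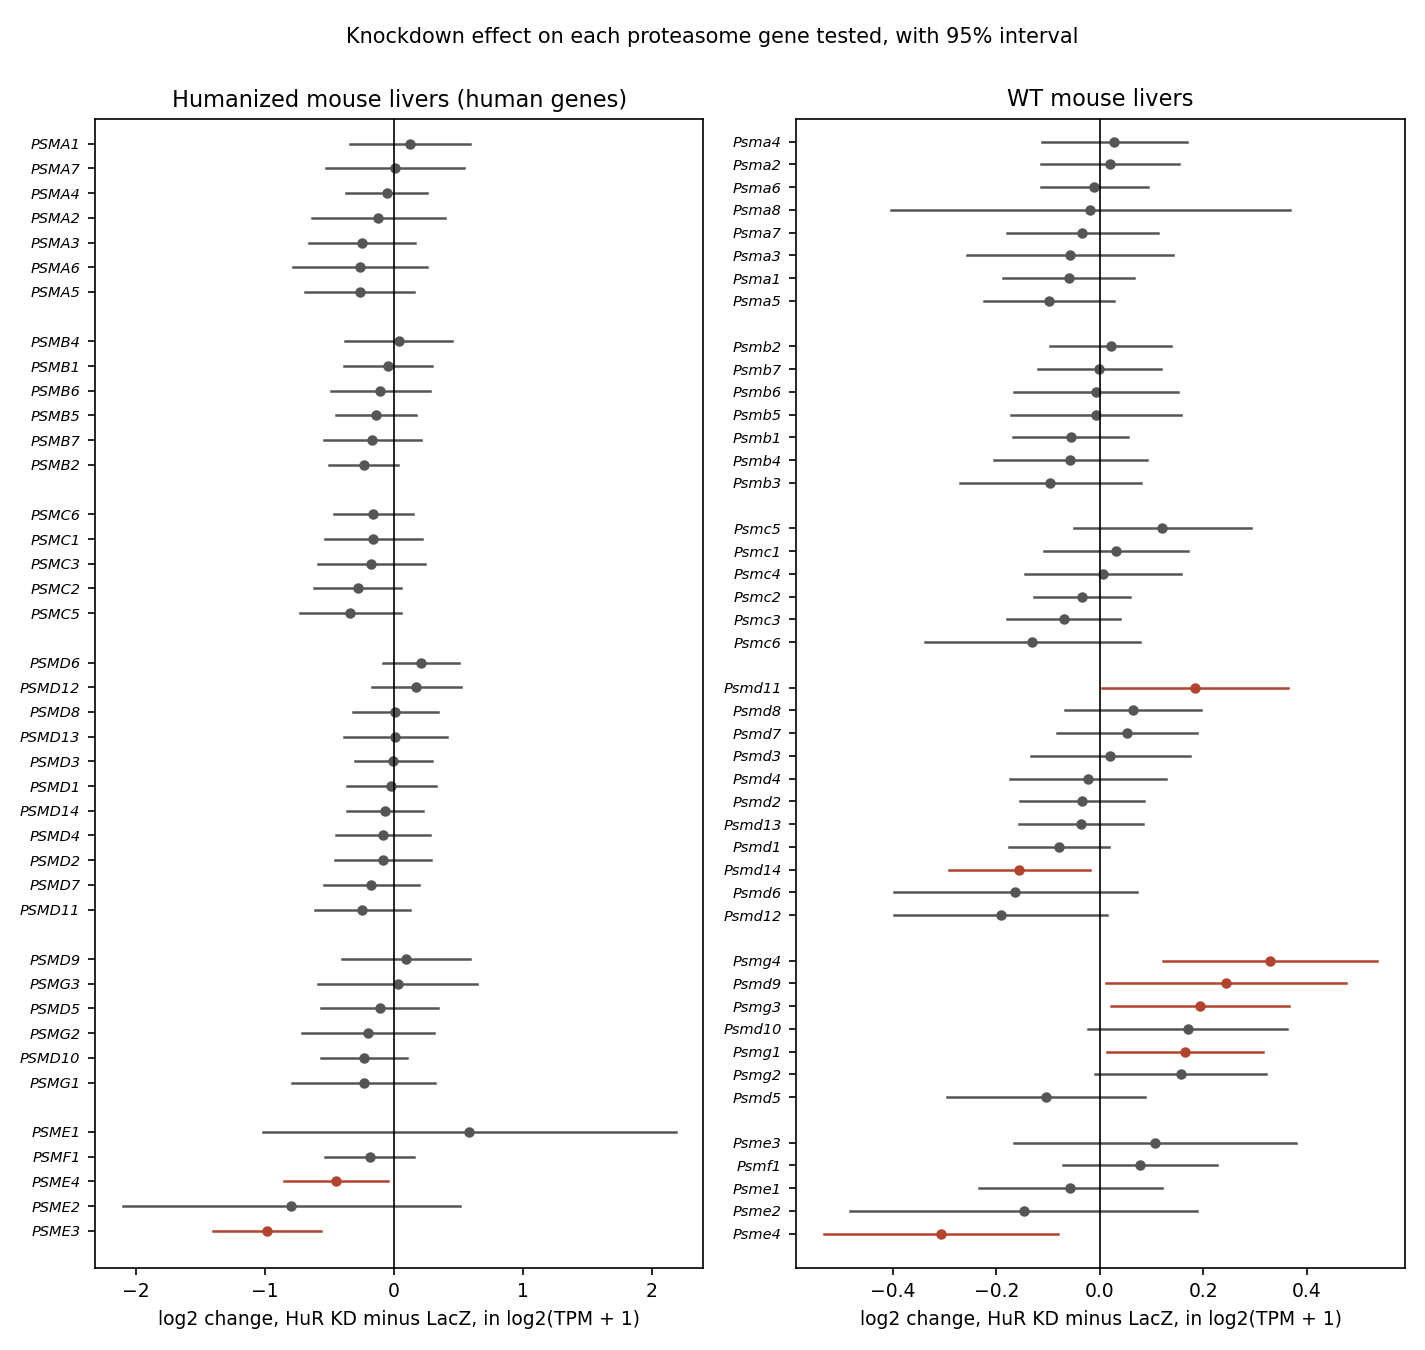
Log2 change with HuR KD, in log2(TPM + 1), of every tested member with its 95% interval, for humanized (40 human genes, left) and WT mouse livers (44 genes, right), in blocks from top to bottom of alpha subunits, beta subunits, cap ATPases, cap non-ATPases, assembly chaperones, and activators with the inhibitor. Red marks an unadjusted p under 0.05, and the x axes differ: PSME3 at -0.98 is farthest from 0 on the left, Psmg4 at 0.33 and Psme4 at -0.31 on the right.

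In WT mouse livers 7 of 44 members were called. Higher with HuR KD were 5 (11.4% of the members, against 9.09% of all genes tested) and lower 2 (4.55%, against 6.94%). After adjustment 0 passed, against 0.888% of all genes, and in 0 of 44 did the groups separate completely, where 2.49% of all genes did. The median log2 change was -0.01 over the members and 0.03 over all genes. Lower calls numbered 6 without HuR KD replicate 6 and 1 without HuR KD replicate 1 or 4 or LacZ replicate 1, 4 or 6. Higher calls numbered 1 without HuR KD replicate 4, 2 without HuR KD replicate 2, 3 or 5 or LacZ replicate 6, and 3 without LacZ replicate 1, 2, 3 or 5. HuR KD replicate 6 and LacZ replicate 2, the libraries of lowest depth, stood apart from their groups in several members. Without both, 4 members were higher and 4 lower, and Psme4, Psmd11 and Psmg1 passed after adjustment. With array weights, which give such libraries less influence, Psme4, Psmd11, Psmg1, Psmg4 and Psmg3 passed after adjustment.

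The assembly chaperones held most of the higher calls, with 4 of 7 called and 6 of 7 above 0 (median log2 change 0.17). Of all genes tested in WT mouse livers, 9.09% were called higher and 43.2% had a negative log2 change. Psmg4, also known as PAC4 and a partner of Psmg3 in building the alpha ring, ran from 20.8 to 30.3 TPM with HuR KD (median 26.9) and from 17.8 to 24.1 TPM in LacZ livers (median 21.0). All knockdown livers but replicate 3 lay above all controls. The log2 change was 0.33 (SE 0.096, limma p 0.00453, adjusted p 0.114), with an exact permutation p of 0.00866, and without HuR KD replicate 3 the adjusted p was 0.0440. Psmg4 rested on 7 reads in LacZ replicate 2 and on 85 to 256 reads in the HuR KD livers.

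Psmg3 (PAC3) ran from 6.75 to 9.34 TPM with HuR KD (median 8.22) and from 6.23 to 7.61 TPM in LacZ livers (median 6.84), with 4 knockdown livers above all controls. Its log2 change was 0.19 (SE 0.079, adjusted p 0.254) and its exact permutation p 0.0260. Psmg1 (PAC1) was at 29.5 to 32.3 TPM (median 30.8) and 23.8 to 32.8 TPM (median 27.3). Here the highest value of all was LacZ replicate 2, and the other controls stayed at or below 28.1 TPM. Its log2 change was 0.16 (SE 0.069, adjusted p 0.263), with an exact permutation p of 0.0303.

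Psmd9, the p27 chaperone of the cap ATPases, ran from 17.8 to 22.8 TPM with HuR KD (median 21.4) and from 14.8 to 22.5 TPM in LacZ livers (median 16.0), with 2 controls inside the knockdown range. Its log2 change was 0.24 (SE 0.11, limma p 0.0404, adjusted p 0.287) and its exact permutation p 0.0541. Of the 3 chaperones not called, Psmg2 was at 15.1 to 17.3 TPM against 11.7 to 16.4 TPM (log2 change 0.16, SE 0.076) and Psmd10 at 15.6 to 22.9 against 14.2 to 17.0 TPM (0.17, SE 0.089). Psmd5 was at 11.6 to 14.7 against 12.4 to 17.0 TPM (-0.10, SE 0.088).

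Summed over the 7 chaperones, HuR KD livers held 129, 135, 127, 140, 134 and 140 TPM in replicates 1 to 6 and LacZ livers 119, 116, 117, 118, 117 and 121 TPM. Every knockdown liver was above every control in this sum, which is given as a description without a test. Taken singly, 0 of the 7 chaperones separated in this way, and the sum includes the 4 that were called. Of the calls behind it, Psmg4 passed with each of the 12 livers left out in turn, Psmg1 with 6, Psmg3 with 5 and Psmd9 with 4. The count of chaperones called ran from 1, without HuR KD replicate 4, to 5, without HuR KD replicate 1, and was 2 without HuR KD replicate 2, 3 or 5 or without LacZ replicate 5 or 6. It was also 2 with median-of-ratios factors.

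**Figure D3:**
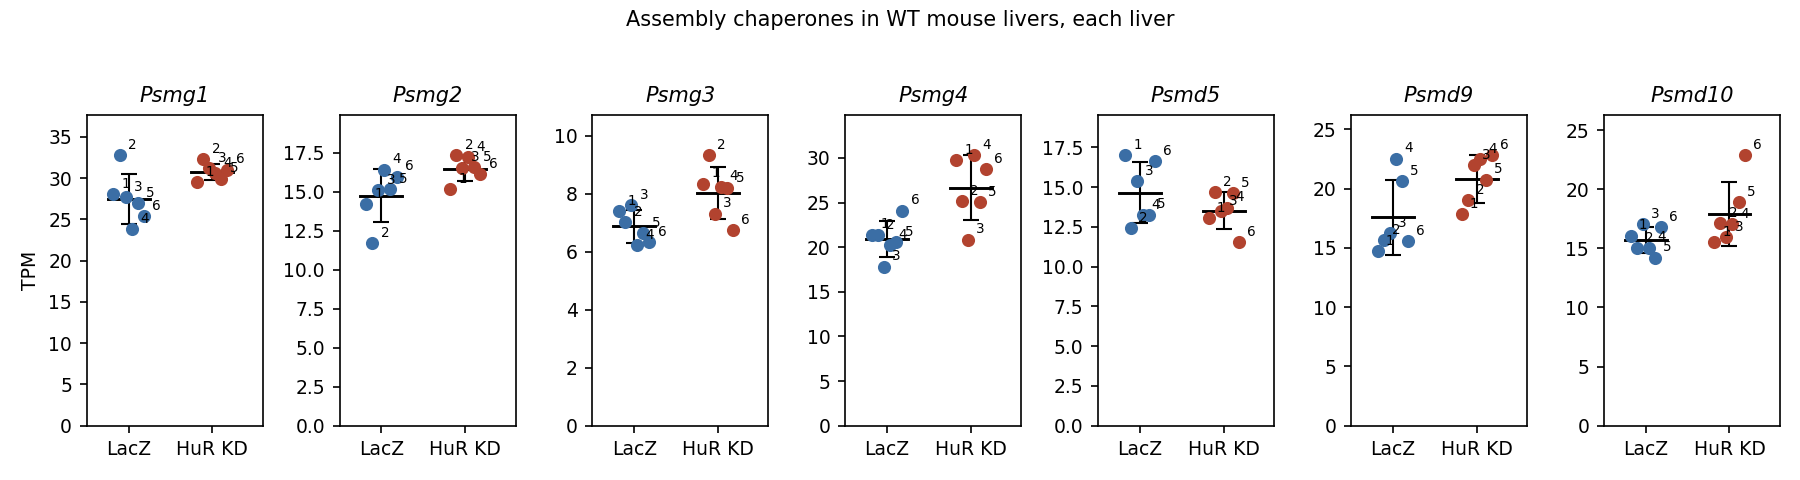
TPM of the 7 assembly chaperones in each WT mouse liver (LacZ blue, HuR KD red, replicate numbers beside the points), with the mean as a line and the SD as a bar. For Psmg4, 5 of 6 HuR KD livers lie above the highest control at 24.1 TPM, while for Psmd9 and Psmg1 some controls reach into the HuR KD range.

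These chaperones assemble the core and cap. Of the 32 core and cap subunits tested in WT mouse livers, 1 was called higher and 1 lower, with a median log2 change of -0.03. Of all genes tested, 9.09% were called higher and 6.94% lower. Core TPM summed to 1382 to 1523 with HuR KD (1452 ± 57.8, SD, n = 6) and 1425 to 1522 in the LacZ livers (1477 ± 39.7, SD, n = 6), and the cap to 1378 to 1524 and 1434 to 1565 TPM. The groups overlapped in both sums.

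None of the 15 mouse core subunits tested was called, by limma without adjustment (0 of 15). Among all genes tested, 9.09% were called higher and 6.94% lower. Psma6, the highest, was at 203 to 224 TPM with HuR KD (median 218) and 207 to 230 TPM in LacZ livers (median 217), a log2 change of -0.01 (SE 0.048, 95% interval -0.11 to 0.09). Psma5, one of the genes with TTTATTT in its 3′ UTR, was at 97.1 to 121 TPM (median 105) and 108 to 118 TPM (median 113), with 4 knockdown livers below all controls and 1 above them (log2 change -0.10, SE 0.058). Psmb4 was at 157 to 198 against 173 to 198 TPM (log2 change -0.06, SE 0.068). Psmb3 was at 58.8 to 64.4 TPM in 5 HuR KD livers, all below the LacZ range of 65.2 to 74.5 TPM, and at 84.5 TPM in HuR KD replicate 6. Its log2 change was -0.10 (SE 0.081) with all livers, and -0.17 with a limma p of 0.00373 (adjusted p 0.0799) without that replicate.

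In the mouse cap, against the same shares of all genes, none of the 6 ATPases was called. Their values lay between -0.13 and 0.12 on the log2 scale. Psmc1 was at 176 to 204 TPM with HuR KD and 166 to 207 TPM in LacZ livers, and Psmc5 at 103 to 148 and 98.9 to 117 TPM. Of the 11 non-ATPases, the scaffold subunit Psmd2 was the highest, at 119 to 142 and 125 to 142 TPM. Psmd14, the deubiquitinase that removes ubiquitin chains from substrates (Rpn11), was called lower. It ran from 43.6 to 52.6 TPM with HuR KD (median 49.8) and from 50.0 to 58.1 TPM in LacZ livers (median 55.0), with 3 knockdown livers below all controls and the others among the lower controls. The log2 change was -0.16 (SE 0.063, limma p 0.0280, adjusted p 0.246) and the exact permutation p 0.0260. The call held with 7 of 12 livers left out in turn, and with the replicate number as a block the limma p was 0.0729.

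Psmd11 (Rpn6), a subunit that bridges core and cap, was called higher. It was at 34.1 to 36.9 TPM in 5 HuR KD livers, all above the LacZ range of 27.4 to 31.3 TPM, and at 25.5 TPM in HuR KD replicate 6, below all controls. Over all livers the log2 change was 0.18 (SE 0.083, limma p 0.0454, adjusted p 0.301), and the exact permutation p was 0.0606. The call held with 3 of the 12 livers left out in turn, and without HuR KD replicate 6 the adjusted p was 0.0267. Without HuR KD replicate 6 and LacZ replicate 2 the change was 0.24 with an adjusted p of 0.0223. Both genes hold TTTATTT in the 3′ UTR, at the sites printed above.

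The called mouse members lie on several chromosomes (GRCm38), with Psmd9 at chr5:123169413-123250131, Psmg4 at chr13:34162964-34178173, Psmg3 at chr5:139823592-139826885, Psmg1 at chr16:95979933-95990960, Psmd14 at chr2:61711694-61800376, Psmd11 at chr11:80428615-80473248 and Psme4 at chr11:30771726-30880361.

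Among the mouse activators, Psme4 was called lower, as was its human counterpart. It ran from 42.2 to 65.7 TPM with HuR KD (median 60.4) and from 58.9 to 77.5 TPM in LacZ livers (median 72.7). The lowest control, replicate 2, lay within the knockdown range, and the other 5 controls, at 71.7 TPM or more, lay above every knockdown liver. The knockdown mean was 81.0% of the control mean. The log2 change was -0.31 (SE 0.10, limma p 0.0117, adjusted p 0.172), with an exact permutation p of 0.0108, and the call held with each of the 12 livers left out in turn. Without HuR KD replicate 6 and LacZ replicate 2 it was -0.27 with an adjusted p of 0.0162.

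Psme3 showed no such difference in WT mouse livers, with 37.3 to 50.0 TPM in HuR KD (median 46.5) and 27.6 to 48.8 TPM in LacZ livers (median 45.0). Its log2 change was 0.11 (SE 0.13, 95% interval -0.17 to 0.38, adjusted p 0.738). Psme1 was at 78.3 to 94.1 against 75.9 to 105 TPM (log2 change -0.06, SE 0.082). Psme2 was at 27.6 to 55.5 against 40.4 to 62.4 TPM (-0.15, SE 0.16), and its near-copy Psme2b at 24.9 to 47.8 against 41.2 to 55.0 TPM (-0.27, SE 0.14), values that reads shared between the copies make uncertain. The inhibitor Psmf1 was at 14.2 to 16.5 against 13.1 to 16.3 TPM (0.08, SE 0.069).

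**Figure D4:**
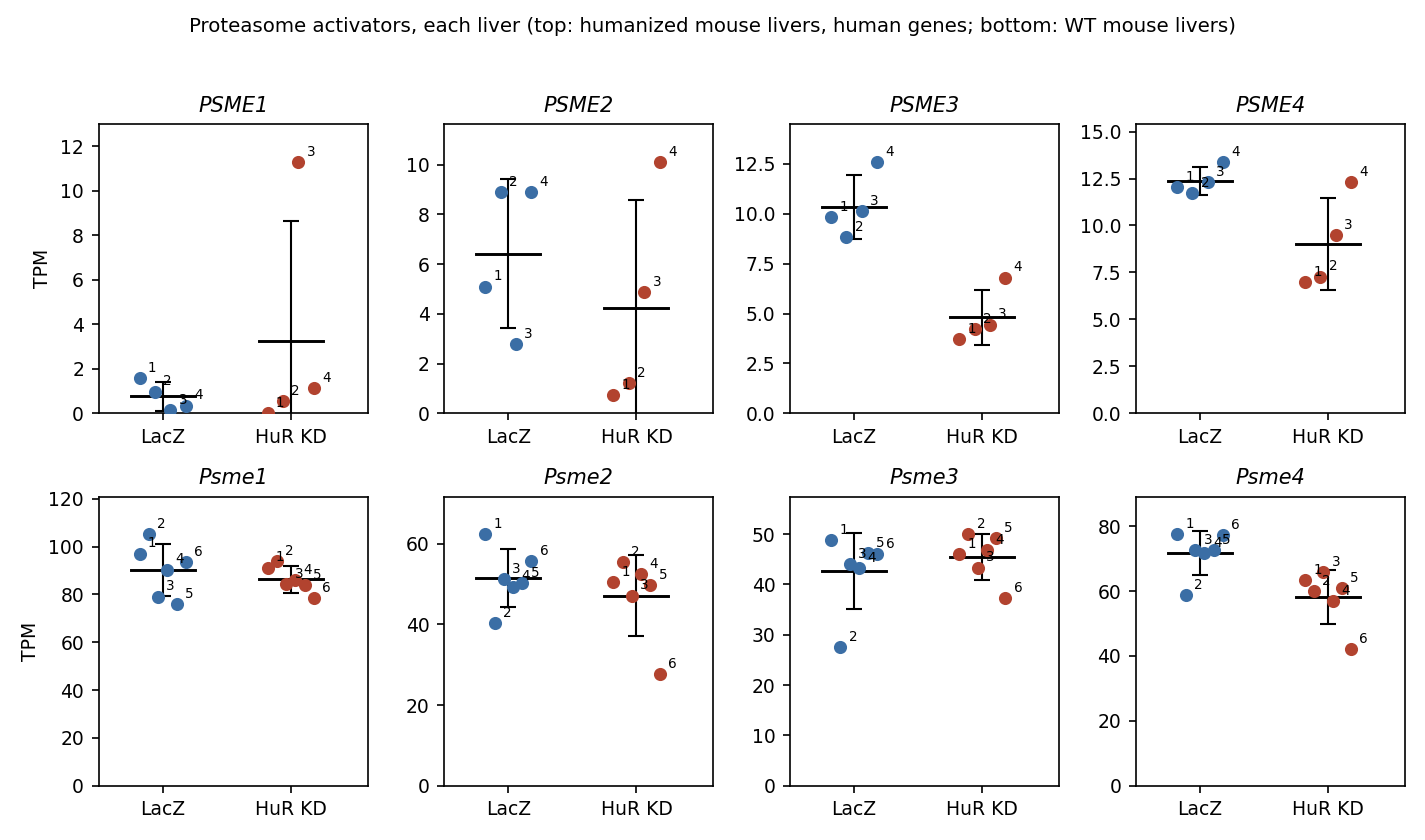
TPM of the 4 activators in each humanized (human genes, top) and WT mouse liver (bottom), with LacZ in blue, HuR KD in red, replicate numbers beside the points, the mean as a line and the SD as a bar (bars below 0 are not drawn). PSME3 separates fully in humanized mouse livers, at 6.81 TPM or less against 8.83 TPM or more, and Psme3 overlaps in WT mouse livers, while PSME4 and Psme4 both lie lower in most HuR KD livers.

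Whether the effects of HuR KD differ between the sets was tested as an interaction over 8119 protein-coding pairs of the same symbol. Of the 40 member pairs, 7 passed the unadjusted threshold (17.5%, against 19.8% of all pairs) and 1 passed after adjustment (5.06% of all pairs). That pair was PSME3, with a log2 change lower by 1.09 in humanized than in WT mouse livers (humanized minus WT -1.09, SE 0.21, 95% interval -1.53 to -0.65, adjusted p 0.00428). The 6 others were PSMC5 (-0.46), PSMD11 (-0.43), PSMD10 (-0.40), PSMD6 (0.37), PSMD12 (0.37) and PSMB2 (-0.26), with adjusted p-values between 0.125 and 0.226. For PSME4, called lower in both sets, the difference was -0.14 with a 95% interval of -0.54 to 0.26. Host strain, age, graft, read length, read depth, gene annotation, shRNA sequence and species differ together between the sets, so these cannot be told apart. Without HuR KD replicate 4 and LacZ replicate 2 of the humanized mice, 2 pairs passed after adjustment.

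The other genes of the pathway were taken from lists. For their counts, the share of all genes called lower was 7.87% in humanized and 6.94% in WT mouse livers. The share called higher was 3.6% and 9.09%, and the share with a negative log2 change was 57.3% and 43.2%. Of the remaining subunits and maturation factors, such as ADRM1, SEM1, POMP and USP14, 0 of 10 human and 0 of 9 mouse genes tested were called, with median log2 changes of -0.10 and -0.09. Among regulators of proteasome genes, 1 of 6 was lower in each set. In WT mouse livers it was Ddi2, the protease that cleaves and activates NFE2L1, at 66.6 ± 5.43 TPM with HuR KD and 76.4 ± 4.27 TPM in LacZ livers (SD, n = 6, log2 change -0.20, SE 0.064). In humanized mouse livers it was SEL1L, of the endoplasmic reticulum degradation ligase (log2 change -0.32, SE 0.14). NFE2L1 itself was not called in either set, with log2 changes of -0.21 (SE 0.27) and -0.08 (SE 0.091). Of 16 ubiquitin and delivery genes tested in WT mouse livers, 1 was called higher and 1 lower (Ubb, -0.22, SE 0.088), 4 had a negative log2 change and the median was 0.06. Of the 16 in humanized mouse livers, 0 were called higher and 1 lower (RPS27A, a ubiquitin fusion gene, -0.37, SE 0.16), 11 had a negative log2 change and the median was -0.10.

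The immunoproteasome, in which interferon-inducible beta subunits replace the constitutive ones, was listed with the peptide transporter genes and B2m. In WT mouse livers 5 of these 6 genes were called lower with HuR KD at an unadjusted p under 0.05, among them 2 of the 3 immunoproteasome subunits, against 6.94% of all genes tested, and 0 after adjustment by limma. Psmb8 was at 15.3 to 25.5 TPM with HuR KD and 18.5 to 29.6 TPM in LacZ livers (log2 change -0.34, SE 0.13), and Psmb9 at 7.75 to 12.6 and 8.83 to 14.2 TPM (-0.30, SE 0.13). The groups overlapped in each. Psmb10 was not called (-0.19, SE 0.12), nor were Psme1 and Psme2, the activator pair that interferon also induces. Of 15 interferon-stimulated genes all 15 had a negative log2 change, 12 were called lower without adjustment and 1 with it, and of the macrophage markers 3 of 7 were called lower without adjustment (Clec4f, Cd68 and Adgre1), against the same 6.94% of all genes, with summed macrophage markers of 193 to 374 TPM against 238 to 326 TPM. Of the 7 macrophage markers, 5 had a negative log2 change. Of the other lists, only Lrat was called among 5 stellate markers (lower) and only Stab2 among 5 endothelial markers (higher). In each of these lists 3 of 5 markers had a negative log2 change, with a median of -0.02. Of the T and NK cell markers tested 0 of 3 were called, and of the cholangiocyte markers 0 of 1. The part of these genes and cells in the immunoproteasome result was not tested. In the humanized mouse livers PSMB8, PSMB9, TAP1 and TAP2, neighbours in the major histocompatibility complex, were listed at 0 in all 8 libraries. How reads that match several places were treated is not given in the sources used here, so these zeros do not show that the genes were not expressed. PSMB10 had means of 5.31 and 5.46 TPM.

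In the humanized mouse livers some markers of other cells were called lower, where 7.87% of all genes tested were. They were 2 of 3 tested cholangiocyte markers (EPCAM and SPP1, summed list 2.81 to 26.1 TPM with HuR KD and 8.53 to 39.1 TPM in LacZ livers) and the 1 stellate marker tested (RELN). The stellate list summed to 0.757 to 1.68 TPM with HuR KD and 2.53 to 4.67 TPM in LacZ livers, without overlap. Summed macrophage markers were at 7.25 to 67.6 and 21.2 to 143 TPM. In every library 5 of the 7 were below 1 TPM, 2 of these at 0. Of the 2 macrophage markers tested, 0 were called. The part of these other cells in the PSME3 and PSME4 differences was not tested.

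Promoters were searched because the subunit genes share transcriptional control. RefSeq promoters (GRCm38.p6, 250 bases before to 50 after the start) matched 37 of the 45 mouse members. The core letters of the antioxidant response element, TGACNNNGC on either strand, occurred in 6 of them (16.2%), against 13.99% of all 27025 genes with a promoter and 16.8% of those tested. The share among the members was close to that background. The 6 genes were Psmd9, Psme4, Psmb6, Psmb5, Psmc6 and Psmd12, and their median log2 change was -0.07, against -0.03 for members without the letters. The promoters of the 2 that were called in WT mouse livers are printed with the match in capitals. That of Psme4, on the plus strand at chr11:30771525-30771824, holds it on the opposite strand from 7 bases before the start, and that of Psmd9, on the plus strand at chr5:123227940-123228239, from 31 bases before the start. GENCODE gives Psmd9 a span from 123169413 to 123250131, which begins well before this start.

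Psme4: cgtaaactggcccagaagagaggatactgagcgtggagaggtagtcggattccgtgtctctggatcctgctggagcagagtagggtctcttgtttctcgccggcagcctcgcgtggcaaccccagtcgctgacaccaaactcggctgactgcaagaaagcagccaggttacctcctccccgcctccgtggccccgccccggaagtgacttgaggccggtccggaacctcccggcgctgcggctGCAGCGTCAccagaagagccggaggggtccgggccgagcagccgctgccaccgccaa

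Psmd9: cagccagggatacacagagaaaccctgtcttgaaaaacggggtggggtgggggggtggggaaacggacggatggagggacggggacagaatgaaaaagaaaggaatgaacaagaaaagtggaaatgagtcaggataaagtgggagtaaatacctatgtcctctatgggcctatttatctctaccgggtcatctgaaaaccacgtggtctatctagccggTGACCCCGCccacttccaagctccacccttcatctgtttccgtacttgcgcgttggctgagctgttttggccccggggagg

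Psme4 was called lower and Psmd9 higher with HuR KD. Of the 6 members that hold these letters 5 had a negative log2 change, of which only that of Psme4 passed the unadjusted threshold. Of all 44 members tested in WT mouse livers 26 had a negative log2 change, and of all genes tested 43.2%.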

How the data were processed

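The authors trimmed the reads, aligned them with HISAT2 (humanized samples against both genomes at once), counted them with featureCounts and deposited TPM per gene, which add up to 1000000 per library. The gene lengths behind the TPM and the strand setting of the counting are not given in the sources used here; per the labels the libraries were strand-specific. With limma 3.58.1 in R 4.3.3, log2(TPM + 1) was compared by lmFit and eBayes with trend, keeping genes whose TPM averaged 1 or more (12738 human, 15090 mouse), each set apart, with Benjamini-Hochberg adjustment. Single members were also compared by two-sided exact permutation (70 and 924 groupings). P-values measure the spread between livers, not between human donors. Tested on simulated data, limma recovered 84.0% and 95.5% of 200 genes shifted by 1 on the log2 scale (humanized, WT) at the unadjusted threshold, at which 4.75% and 5.16% of the genes left as they were passed too. With adjustment, the recovery was 31.0% and 80.5%. The simulated livers varied independently, and every called member changed by less than 1 on the log2 scale. These shares therefore do not give the recovery for changes of the size reported. Reads were recovered from the steps of the TPM values for all of the 18702 human and 25110 mouse genes that had a value in at least 4 libraries (100%), in Python 3.11.15, and figures were drawn with matplotlib 3.10.9. Named with values were members called or not overlapping, the highest and the smallest p of each class, and the activators with the inhibitor. Fixed alternatives were other pseudocounts, filters, scalings, variance models and livers left out. Voom on recovered reads and the fits without a pair of livers were chosen after seeing the data. The members and lists were chosen with earlier results of these data known. A gene of the pathway lists is not reported here.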

Additional observations from a re-analysis of the deposited data

Results flagged for a closer look

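In 6 of the 66 groups of 4 or 6 livers screened, 1 liver lay far from the others, where chance gives about 1 in 20. The library of lowest depth, WT LacZ replicate 2, was low for Psme4 (58.9 TPM) and Psme3 (27.6 TPM). WT HuR KD replicate 6 was low for Psmd11 (25.5 TPM) and Psme2 (27.6 TPM) and high for Psmb3 (84.5 TPM). Humanized HuR KD replicate 3 was high for PSME1 (11.3 TPM). The effect of HuR KD on PSME3 differed between humanized and WT mouse livers by a log2 value of -1.09 in the interaction test.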

How the results depend on the processing

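No called result changed sign under the alternatives run. In humanized mouse livers, 1 member was higher with median-of-ratios factors or quantile normalization (0 in the report), 1 was lower with protein-coding scaling (2 in the report), and 1 passed after adjustment with array weights or without the 2 correlated libraries (0 in the report). In WT mouse livers, members called higher were 3 with median-of-ratios factors (5 in the report, chaperones 2 in place of 4). Members called lower were 5 with array weights, 4 without the 2 shallowest libraries and 1 with the replicate block (2 in the report), and adjusted calls were 5 with array weights and 3 without the 2 shallowest libraries. Interaction pairs were 4 with the replicate block (7 in the report), and 2 passed after adjustment without the 2 correlated humanized libraries.

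With single livers left out, counts ran from 1 to 5 lower and 0 to 1 adjusted in humanized mouse livers, and from 1 to 5 higher, 1 to 6 lower, 0 to 1 adjusted and 1 to 5 chaperones in WT mouse livers. Interaction pairs ran from 4 to 10 unadjusted and 1 to 2 adjusted, and the PSME3 difference from -1.24 to -0.97. The median log2 change of the members ran from -0.22 to -0.07 in humanized and from -0.03 to 0.00187 in WT mouse livers. The replicate numbers were not taken as pairs in the main fits. Deviations of livers with the same number correlated between -0.142 and 0.206 in WT and -0.249 and 0.137 in humanized mice. These few values cannot tell whether livers were handled together. Under unlike numbers, humanized HuR KD replicate 4 and LacZ replicate 2 reached 0.532, and WT HuR KD replicate 3 and LacZ replicate 4 reached 0.321. The block by replicate number left 2 members lower in the humanized set. Without HuR KD replicate 3, PSME1 no longer passed the filter on low values and has no value. At most 11 reads lay behind PSMB3 in any humanized mouse liver, and 7 behind Psmg4 in WT LacZ replicate 2.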
